A study of Mus musculus with 2 samples.

Results

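Vip, Prok2 and Grp encode neuropeptides, and Vipr1, Vipr2, Prokr2 and Grpr encode receptors for them. The 7 genes were found by their symbols among the 31054 genes listed in the count matrices of a single-cell RNA study of the mouse preoptic area. They were selected on the measured levels of these genes in the neurons of the 2 libraries, so the levels of Vip, Prok2 and Grp in all neurons are given as a description and carry no test. The study has 2 libraries from C57BL/6J mice aged 9 to 10 weeks, which the series' design text calls wild type. The SD+RS library came from mice kept awake for 6 h and then left to sleep for 2 h (recovery sleep). The SD library came from mice kept awake for 6 h (sleep deprivation) with no recovery sleep. Males and females were pooled in each library, the cells were prepared by Act-seq, a dissociation in the presence of a transcription blocker, and the libraries were made with 10x Genomics chemistry. The sources used here do not give the number of mice in a pool or the hours of the day. With 1 library per group there is no replicate check and no test between groups. Every interval below is an exact 95% interval that covers counting error only.

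Vasoactive intestinal peptide, the product of Vip, acts on VPAC receptors, the products of Vipr1 and Vipr2, which raise cyclic AMP. Prokineticin 2, the product of Prok2, acts on receptors that include the product of Prokr2, and gastrin-releasing peptide, the product of Grp, acts on the product of Grpr, and both receptors signal mainly through Gq proteins. All 3 peptides are best known in this part of the brain as signals of the suprachiasmatic nucleus, the circadian clock that lies just behind and below the preoptic area.

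The SD+RS library held 8106 cell barcodes with a median of 14774 UMIs (counted molecules), and the SD library held 10262 with a median of 7534.5. They shared 23 barcodes. After filtering, 4257 of 7415 SD+RS cells (57.4%) and 3733 of 9297 SD cells (40.2%) were kept as neurons, with median depths of 21277 and 22146 UMIs, so the kept neurons of both libraries were read to a similar depth. A shallow cluster that scored best for neurons was left out, with 73 SD+RS and 602 SD cells and a median of 3276 UMIs. Every share of neurons below depends on that choice, and no alternative included the cluster. The authors' assignment of cells to clusters was not used here. Neuron clusters were rebuilt with the 7 genes left out, and each is called by leading genes of its own. The sexes were mixed unequally: of the neurons with UMIs of Xist, the RNA of the inactive X chromosome, or of Y-linked genes but not of both, 77.3% were Xist-only in SD+RS (3137 against 923 Y-only neurons) and 38.8% in SD (1306 against 2062). Values within each sex call are therefore given beside many of the results. The count matrices also list YFP, the gene of a fluorescent reporter that wild-type mice lack. It had 228 UMIs in 28 SD+RS neurons (2.34 CPM, which is UMIs of the gene per 1000000 UMIs of the same cells) and 4304 UMIs in 197 SD neurons (48.5 CPM). The label of wild type and these UMIs do not go together, and the sources used here do not explain them. In SD its level was highest in the cluster led by Calcr, Brs3 and Gal, at 0.50 CPM in SD+RS and 616 in SD. Among the SD neurons it stood at 125 CPM in Xist-only and 5.92 in Y-only cells. With every neuron that held a YFP UMI left out, the log2 ratio of SD+RS over SD in neurons was 1.12 for Vip, 0.45 for Prok2 and -0.54 for Grp, against 0.91, 0.43 and -0.62 with them.

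All 3 peptide genes were read mainly in neurons. At least 1 Vip UMI was found in 5.10% of SD+RS neurons and 3.99% of SD neurons, against 0.549% of SD+RS and 0.621% of SD astrocytes, whose median depths were 3140 and 3444 UMIs. For Prok2 the share was 8.41% of SD+RS and 7.26% of SD neurons, against 0.235% and 0.143% of their astrocytes. For Grp it was 6.23% and 7.34% of neurons, against 0.235% and 0.286% of astrocytes. No astrocyte or oligodendrocyte held 5 or more Vip UMIs. When every neuron was thinned to 2000 UMIs, the share with a Vip UMI expected over all draws was 2.17% in SD+RS and 1.38% in SD, that for Prok2 was 1.98% and 1.53%, and that for Grp was 1.92% and 2.57%, so the order of the libraries was kept for all 3 genes.

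The receptor genes were sparse, and Vipr2, Vipr1 and Prokr2 were also read in some cells other than neurons. Vipr2 reached 8.22 CPM (6 UMIs) in SD+RS and 9.29 (11 UMIs) in SD oligodendrocyte precursors, the cells that renew oligodendrocytes. In neurons it stood at 0.605 CPM in SD+RS and 0.902 in SD. Vipr1 had 13 neuronal UMIs in SD+RS and 16 in SD, and microglia held 1 and 7. Prokr2 had no UMI among 1274 SD+RS astrocytes, which allows a share of up to 0.235% of cells with one, and 15 UMIs in 8 of 2095 SD astrocytes. Different clusters held most astrocytes of the 2 libraries: one led by Gm3764, Itih3 and Agt held 1023 SD+RS and 94 SD cells, and one led by F3, Gjb6 and Etnppl held 161 and 1806. Grpr was read in 2.65% of SD+RS and 2.87% of SD neurons and in no astrocyte or oligodendrocyte of either library.

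In neurons, Vip stood at 55.9 CPM in SD+RS (5452 UMIs, interval 54.4 to 57.4) and 29.7 in SD (2637 UMIs, 28.6 to 30.9), a log2 ratio of SD+RS over SD of 0.91 (0.84 to 0.98). Prok2 stood at 20.6 CPM in SD+RS and 15.3 in SD, a log2 ratio of 0.43 (0.33 to 0.53). Grp stood at 18.5 in SD+RS and 28.3 in SD, a log2 ratio of -0.62 (-0.70 to -0.53). Vip and Prok2 were thus higher, and Grp lower, in the library taken after recovery sleep. Of the 6 members with at least 100 neuronal UMIs, 1 (Vip) was past 1.5-fold higher and 1 (Grp) past 1.5-fold lower. Among the 13982 genes at that depth, 2.76% were past 1.5-fold, 1.04% higher and 1.72% lower; as the members were chosen with these ratios known, nothing is read from their count.

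The receptor ratios rest on far fewer UMIs. Vipr2 had a log2 ratio of -0.58 (-1.09 to -0.07, from 59 SD+RS and 80 SD UMIs). Prokr2 stood at 1.44 CPM in SD+RS and 1.91 in SD, a log2 ratio of -0.41 (-0.74 to -0.08). Both stood lower in SD+RS, and Prokr2 had a log2 ratio of -0.81 (-1.28 to -0.34) in Xist-only and -0.01 (-0.62 to 0.58) in Y-only neurons. The intervals of Vipr2 within each sex call, -1.28 to 0.32 in Xist-only and -1.04 to 0.60 in Y-only neurons, both included 0. Grpr stood at 1.68 CPM in SD+RS and 1.67 in SD, a log2 ratio of 0.01 (-0.32 to 0.34), so a difference past that interval was not detected. Vipr1 was too sparse for a ratio, with an interval of -1.61 to 0.71.

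Within the sex calls the 3 peptides differed in direction. Vip stood at 71.4 CPM in SD+RS and 45.7 in SD among Xist-only neurons (log2 0.65), and at 7.62 in SD+RS and 20.5 in SD among Y-only neurons (log2 -1.43). Its direction was thus opposite in the 2 sex calls, a difference that was not tested. The Y-only value leans on few cells: 1 SD neuron held 377 of the 997 SD UMIs, and SD+RS had 161 UMIs. Prok2 was higher in SD+RS in both, at 15.4 against 8.73 in Xist-only neurons (log2 0.82) and 32.7 against 20.5 in Y-only neurons (log2 0.67). Grp was lower in SD+RS in both, at 22.3 against 26.3 in Xist-only neurons (log2 -0.24) and 7.20 against 28.5 in Y-only neurons (log2 -1.99).

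**Figure D1:**
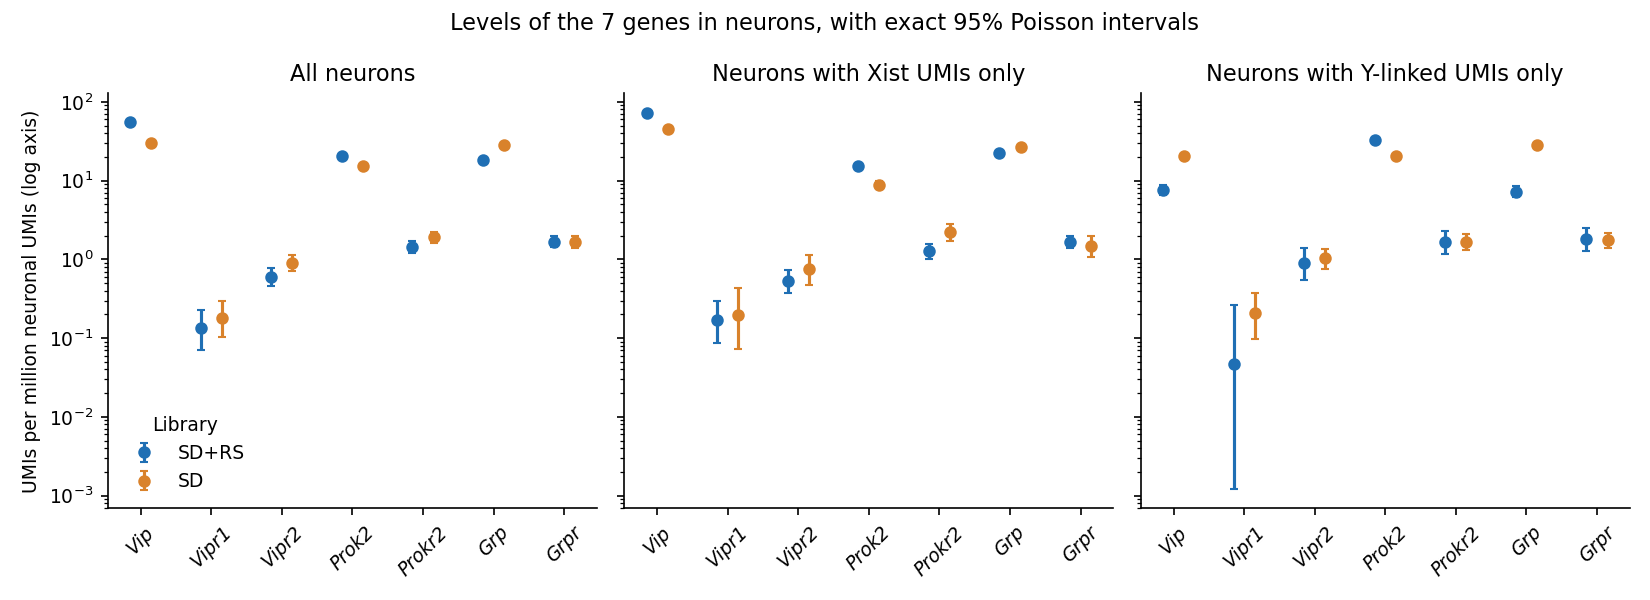
Levels of the 7 genes in neurons, in CPM on a log axis, with exact 95% Poisson intervals, for all neurons, Xist-only and Y-only neurons. In the Y-only panel the SD+RS points of Vip (7.62) and Grp (7.20) lie below the SD points (20.5 and 28.5), while for Vip the order is the other way in the Xist-only panel. Of the 997 Y-only Vip UMIs in SD, 377 came from 1 neuron.

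Most UMIs of a peptide came from few cells. Neurons with at least 5 UMIs of a peptide gene, called rich in it here, numbered 91 of the SD+RS and 54 of the SD neurons for Vip, and they held 96.4% and 94.9% of its neuronal UMIs. Prok2-rich neurons numbered 78 in SD+RS and 52 in SD and held 78.7% and 78.1% of its UMIs. Grp-rich neurons numbered 94 in SD+RS and 108 in SD and held 84.0% and 88.7%. The single neuron with the most Vip had 421 UMIs in SD+RS, 7.72% of the total, and 377 in SD, 14.3% of the total.

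Set apart in this way, number and amount gave different pictures for the 3 genes. Vip-rich cells made up 2.14% of SD+RS and 1.45% of SD neurons (log2 ratio 0.56, 0.06 to 1.08), and a rich cell held a mean of 57.8 Vip UMIs in SD+RS and 46.4 in SD (log2 0.32), so Vip was higher on both counts. Prok2-rich cells made up 1.83% of SD+RS and 1.39% of SD neurons (log2 0.40, -0.13 to 0.93), and a rich cell held a mean of 20.3 Prok2 UMIs in each library. Grp-rich cells made up 2.21% of SD+RS and 2.89% of SD neurons (log2 -0.39, -0.80 to 0.02), with a mean of 16.1 Grp UMIs in SD+RS and 20.6 in SD (log2 -0.36). For Prok2 and Grp the interval of the share included 0 at this limit of 5 UMIs. With a limit of 2 UMIs the log2 ratio of the share was 0.47 (0.11 to 0.83) for Prok2 and -0.33 (-0.64 to -0.01) for Grp. With a limit of 10 UMIs that of Grp was -0.82 (-1.39 to -0.28), and the log2 ratio of the mean number of Grp UMIs in those cells was -0.09, so the division of the Grp difference between number and amount depends on the limit.

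**Figure D2:**
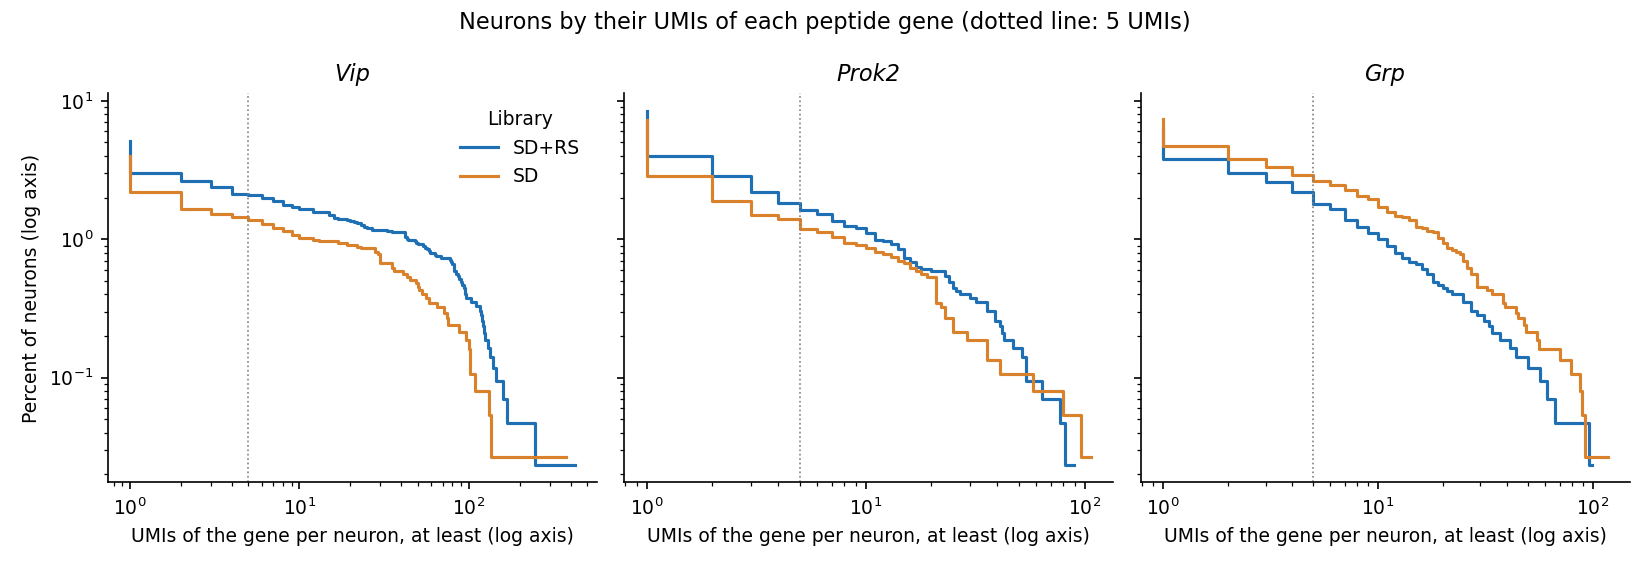
Percent of neurons (log axis) with at least a given number of UMIs (log axis) of Vip, Prok2 and Grp, with 1 line per library and a dotted line at 5 UMIs. The SD+RS line of Vip lies above the SD line at every number up to 200 UMIs, that of Grp lies below it up to 90 UMIs, and the Prok2 lines cross above 50 UMIs.

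Among rich cells the sex calls also divided. Xist-only neurons were Vip-rich in 2.61% of SD+RS (82 cells) and 2.30% of SD (30 cells), a log2 ratio of 0.19 (-0.43 to 0.84), so within Xist-only neurons the share did not differ beyond counting error. Y-only neurons were Vip-rich in 0.758% of SD+RS (7 cells) and 0.873% of SD (18 cells). In both libraries the Vip-rich share was higher among Xist-only than among Y-only neurons, a difference that was not tested. Grp-rich shares were 2.68% in SD+RS and 2.76% in SD among Xist-only neurons, and 0.758% in SD+RS (7 cells) and 2.96% in SD (61 cells) among Y-only neurons, where the log2 ratio was -1.96 (-3.34 to -0.83). Within Xist-only neurons the Grp-rich share did not differ beyond counting error (log2 -0.04, -0.62 to 0.56); the difference between the sex calls was not tested.

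Vip was read at its highest level, among the 32 clusters with at least 50 neurons in each library, in the Ntng1 Penk Gal cluster, led by the genes of netrin-G1, an axonal adhesion protein, proenkephalin, an opioid peptide precursor, and galanin, an inhibitory neuropeptide. Slc32a1, the vesicular GABA transporter, was found in 97.6% of its cells and Gad2, a GABA-synthesising enzyme, in all of them. The cluster held 178 SD+RS and 118 SD neurons, 4.18% and 3.16% of each library's neurons (log2 0.40, 0.06 to 0.75). Its Vip level was 430.2 CPM in SD+RS and 157 in SD, a log2 ratio of 1.45 (1.32 to 1.58) in a cluster where 3.34% of genes were past 1.5-fold, 1.13% higher and 2.21% lower. There 40 SD+RS cells (22.5%) and 14 SD cells (11.9%) were Vip-rich. Next by the mean of both libraries came the Calcr Brs3 Gal cluster, named for the calcitonin receptor and an orphan bombesin receptor, with 126 CPM in SD+RS and 76.9 in SD. The Tac2 Crh Lamp5 cluster, with the genes of neurokinin B and corticotropin-releasing hormone, had 29.1 in SD+RS and 136 in SD, the opposite order. The Ntng1 Penk Gal cluster was the highest of the 32 in each library, and 8 of the 32 clusters in SD+RS and 11 in SD had no Vip UMI. The Th Cck Slc18a2 cluster, chosen after its values were seen because it had 92 SD+RS but 45 SD neurons, had 838 Vip CPM in SD+RS and 850.0 in SD, from 12 and 6 rich cells. Its Y-only cells held 1 Vip UMI in SD+RS (24 cells) and 413 in SD (30 cells, 377 of the UMIs in 1 of them). In the Penk Serpinb1b Nmu cluster 1 SD+RS neuron held 245 of 246 Vip UMIs. The ratio within the highest cluster depended on how neurons were divided: it was 0.42 in the highest Vip cluster at clustering resolution 1.0 and 0.19 in that at resolution 2.0, clusters that need not hold the same cells.

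The sex calls of the Ntng1 Penk Gal cluster stood far apart. There, 39 of 93 Xist-only cells in SD+RS (41.9%) and 9 of 24 in SD (37.5%) were Vip-rich, against 1 of 66 Y-only cells in SD+RS (1.52%) and 3 of 81 in SD (3.70%). In both libraries the Vip-rich cells of the cluster were thus mostly Xist-only cells. The difference between the sex calls was not tested, as cells of 1 pool of mice are not replicates. The level in Xist-only cells was 847 CPM in SD+RS and 709.8 in SD, a log2 ratio of 0.25 (0.11 to 0.40), in place of 1.45 for the whole cluster. In Y-only cells it was 7.45 in SD+RS and 40.02 in SD, a log2 ratio of -2.43 (-3.31 to -1.64). Xist-only cells were 58.5% of the sex-called cells of the cluster in SD+RS and 22.9% in SD.

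**Figure D3:**
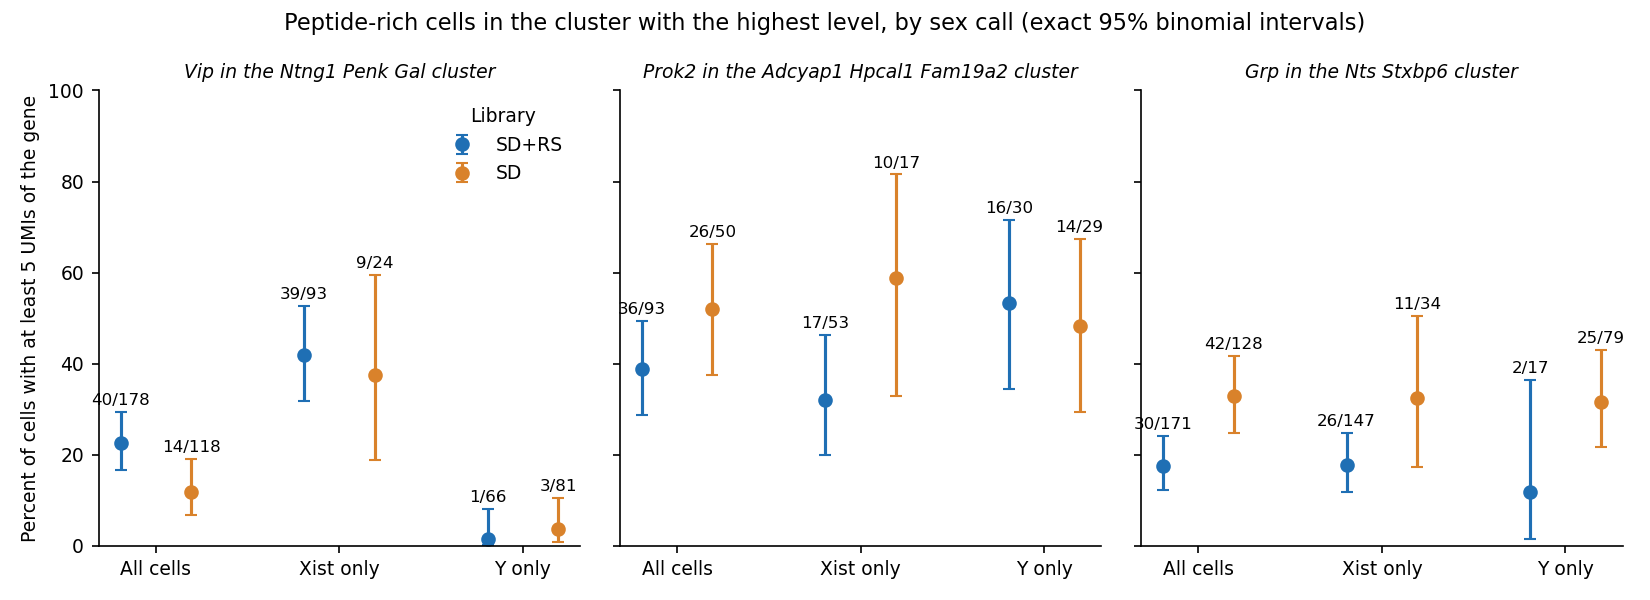
Percent of cells with at least 5 UMIs of the peptide gene in the described cluster where its level was highest, for all cells, Xist-only and Y-only cells, with exact 95% binomial intervals and the number of rich cells over all cells. In the Ntng1 Penk Gal cluster 39 of 93 SD+RS and 9 of 24 SD Xist-only cells were Vip-rich, against 1 of 66 and 3 of 81 Y-only cells; the Prok2 and Grp panels show no such gap between the sex calls in the SD library.

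The difference in Vip over all neurons, 26.2 CPM, was split over all 41 clusters into a part from how many of the neuronal UMIs each cluster held and a part from the level within clusters. The number part was 12.4 (47.4%) and the level part 13.8. Other divisions of the neurons gave a smaller number part, 7.15 (27.3%) at resolution 1.0, 9.14 (34.9%) at resolution 2.0 and 7.86 (30.0%) with the 7 genes kept in the clustering, so the near-even split holds for 1 of the 4 divisions. The Ntng1 Penk Gal cluster gave 17.1 of it, 3.60 by number and 13.5 by level. The Th Cck Slc18a2 cluster gave 7.15, of which 7.32 was by number and -0.17 by level, and the Tac2 Crh Lamp5 cluster gave -3.09. The Ntng1 Penk Gal cluster thus added mainly by its pooled level, the Th Cck Slc18a2 cluster by number, and the Tac2 Crh Lamp5 cluster took away. In this split, here and below, the level pools all cells of a cluster. It therefore also holds the share of rich cells within the cluster, for Vip in Ntng1 Penk Gal 22.5% in SD+RS and 11.9% in SD. It is not the amount per cell alone. The number part rests on each cluster's share of neuronal UMIs. It therefore also holds the depth of the cluster's cells and is not cell number alone.

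Vip lies on chromosome 10 at 5639218 to 5647617, plus strand (mm10), as a protein-coding gene. Its promoter, from 250 bases before the start to 50 bases after it, is printed because cyclic AMP is known to drive this gene, and it was searched on both strands for the full cyclic AMP response element TGACGTCA and its shorter form TGACG. The sequence is RefSeq's (GRCm38.p6, chr10:5638968-5639267, plus strand), with the match in capitals.
Vip: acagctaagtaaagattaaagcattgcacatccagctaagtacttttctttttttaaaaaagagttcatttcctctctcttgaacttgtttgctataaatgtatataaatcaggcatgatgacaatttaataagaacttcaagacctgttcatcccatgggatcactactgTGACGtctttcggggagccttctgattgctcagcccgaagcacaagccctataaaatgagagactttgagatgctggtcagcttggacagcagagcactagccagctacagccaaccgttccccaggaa
The shorter form was found once, 79 bases before the start, and 20.8% of 32851 promoters of 300 bases hold one. The full element was found in none of the 6 member promoters searched, and 1.79% of all promoters hold it. Among the receptors, Grpr had TGACG 80 bases before its start and Vipr1 had its reverse, CGTCA, 13 bases before.

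Prok2 was highest in the Adcyap1 Hpcal1 Fam19a2 cluster, whose leading gene encodes the peptide PACAP, a relative of VIP. This was a glutamatergic cluster by Slc17a6, the vesicular glutamate transporter, found in 98.6% of its cells, while Slc32a1 was in 4.90%. It held 93 SD+RS and 50 SD neurons, 2.18% and 1.34% of neurons, a log2 ratio of 0.71 (0.19 to 1.23). Its Prok2 level was 364 CPM in SD+RS and 449 in SD, a log2 ratio of -0.31 (-0.47 to -0.14), under the 1.5-fold that 2.77% of the cluster's genes passed, 1.12% higher and 1.66% lower. In SD+RS 36 cells (38.7%) and in SD 26 cells (52.0%) were Prok2-rich. The cluster was therefore larger in SD+RS but its Prok2 level was lower. Without the cell with the most Prok2 in each library the log2 ratio of the level was -0.16 (-0.34 to 0.02). Within Xist-only cells the log2 ratio was -0.12 (-0.44 to 0.22) and within Y-only cells 0.0014 (-0.20 to 0.21), so neither differed beyond counting error. Y-only cells had the higher level in both libraries, 584 CPM in SD+RS and 584 in SD, against 245 and 266 in Xist-only cells.

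The GABAergic Calcr Brs3 Gal cluster, with Slc32a1 in 93.3% of its cells, came next with 164 Prok2 CPM in SD+RS and 158 in SD (log2 0.05, -0.13 to 0.23). Its sex calls were far apart and not in the same way: Xist-only cells stood at 171 in SD+RS and 19.2 in SD, and Y-only cells at 164 in SD+RS and 281 in SD. The Meis2 Nrgn Six3 cluster was the third, with 19.0 in SD+RS and 26.0 in SD, well below the first pair. Over all clusters the difference of 5.36 CPM was made of a number part of 5.86 and a level part of -0.51. With this division of the neurons, the higher Prok2 level in SD+RS thus lay in the clusters' shares of neuronal UMIs. At resolution 1.0 the parts were 3.08 and 2.28. The largest shares came from the Calcr Brs3 Gal cluster with 1.93, the Th Cck Slc18a2 cluster with 1.59 and the Adcyap1 Hpcal1 Fam19a2 cluster with 1.54.

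Prok2 lies on chromosome 6 at 99711299 to 99726392, minus strand (mm10). Its promoter is printed because the clock is known to drive this gene in mice through the E-box CACGTG, the site bound by clock proteins. The sequence is RefSeq's (GRCm38.p6, chr6:99726343-99726642, minus strand), with the match in capitals.
Prok2: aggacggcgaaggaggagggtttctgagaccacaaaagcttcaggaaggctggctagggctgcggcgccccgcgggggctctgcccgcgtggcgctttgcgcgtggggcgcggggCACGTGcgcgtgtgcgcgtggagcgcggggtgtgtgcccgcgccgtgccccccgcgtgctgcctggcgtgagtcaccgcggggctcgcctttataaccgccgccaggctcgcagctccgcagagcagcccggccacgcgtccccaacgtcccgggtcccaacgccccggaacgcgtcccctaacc
The E-box was found once, 135 bases before the start, and in no other member promoter searched, while 7.15% of all promoters hold one.

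Grp was highest in the Nts Stxbp6 cluster, led by the neurotensin gene, with Slc32a1 in 96.7% of its cells. It held 171 SD+RS and 128 SD neurons, 4.02% and 3.43% of neurons (log2 0.23, -0.11 to 0.57). Its Grp level was 152 CPM in SD+RS and 386 in SD, a log2 ratio of -1.35 (-1.48 to -1.22) in a cluster where 3.8% of genes were past 1.5-fold, 1.29% higher and 2.51% lower. There 30 SD+RS cells (17.5%) and 42 SD cells (32.8%) were Grp-rich. The lower level stood in both sex calls: Xist-only cells had 162 in SD+RS and 459 in SD (log2 -1.50), and Y-only cells had 61.5 in SD+RS and 335 in SD (log2 -2.45). The Xist-only share of sex-called cells here was 89.6% in SD+RS and 30.1% in SD.

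The glutamatergic C1ql1 Sncg Fam159a cluster came second, with 40.9 Grp CPM in SD+RS and 91.2 in SD (log2 -1.16, -1.60 to -0.73). The Tac2 Crh Lamp5 cluster had the opposite order, 72.7 in SD+RS and 35.1 in SD, from 6 and 3 rich cells. Over all clusters the difference of -9.84 CPM was made of a number part of 0.87 and a level part of -10.7, so the lower Grp level in SD+RS lay within clusters. The Nts Stxbp6 cluster alone gave -8.87, with 1.49 by number and -10.4 by level. Without that cluster the log2 ratio of Grp in neurons was -0.11 (-0.23 to 0.01). At resolution 2.0 the number part was -3.15 and the level part -6.69, and the share of neurons in the highest Grp cluster had a log2 ratio of -0.55.

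**Figure D4:**
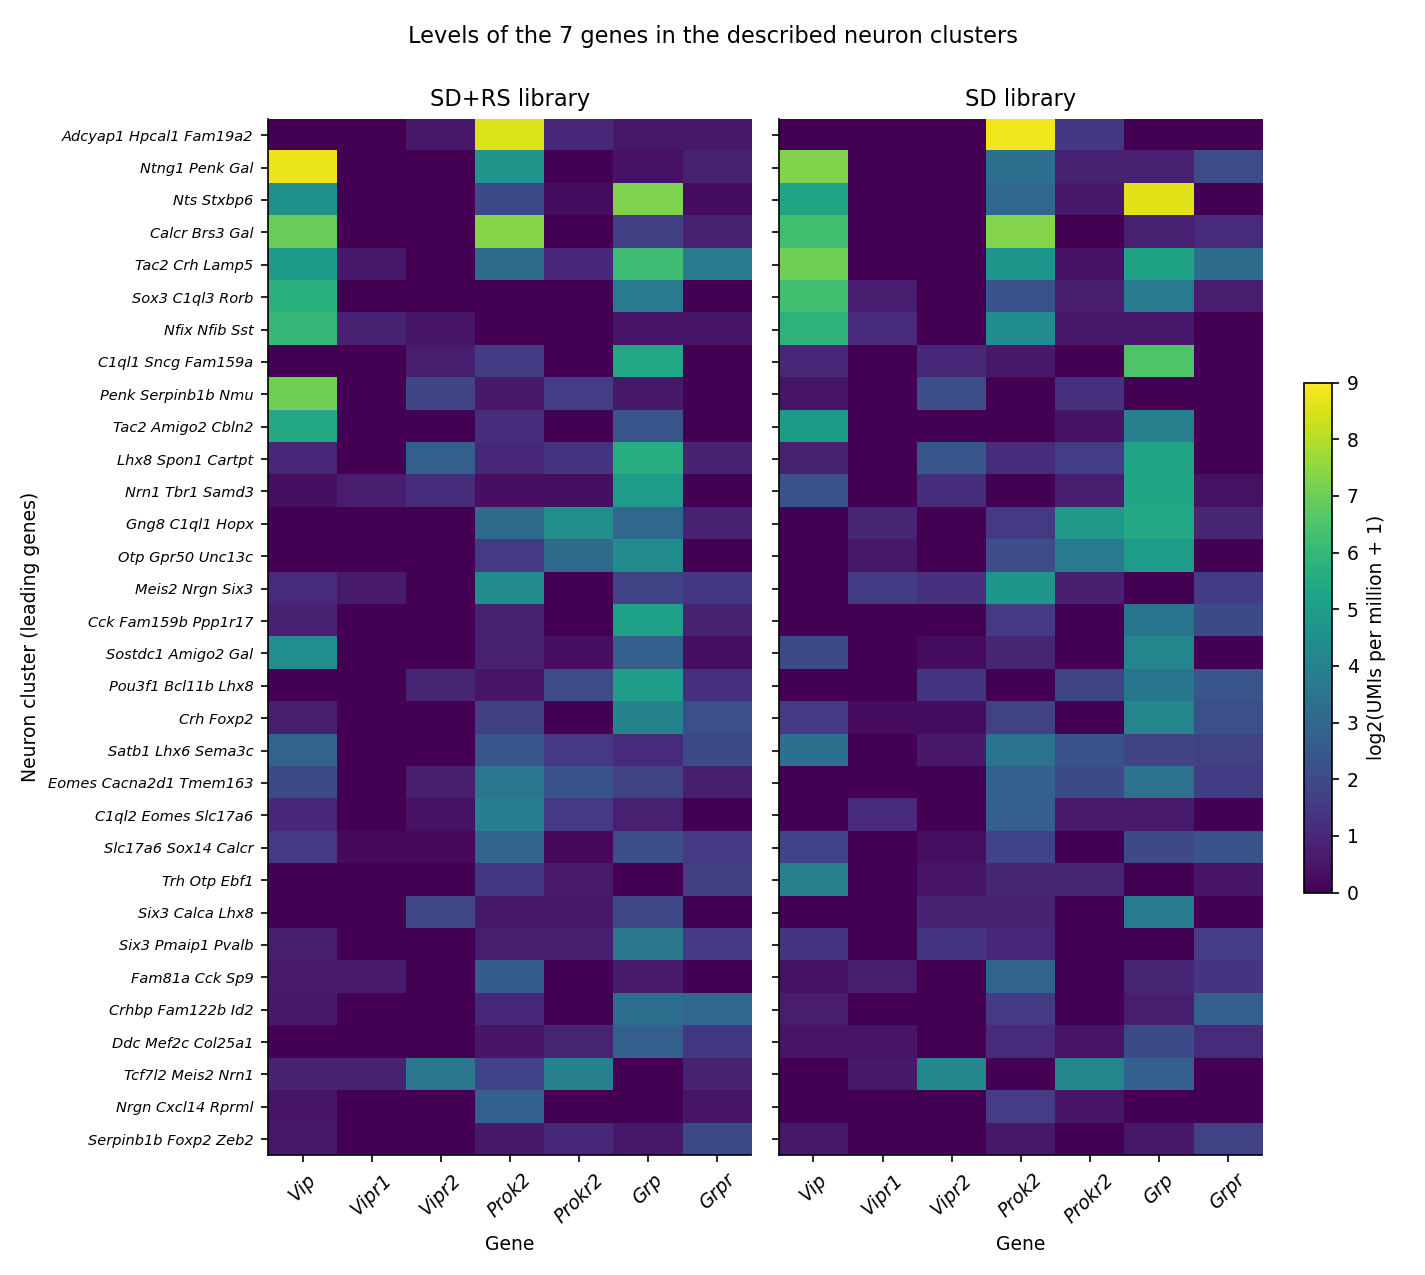
Levels of the 7 genes in the 32 clusters with at least 50 neurons in each library, as log2(CPM + 1), SD+RS on the left and SD on the right, with clusters ordered by the summed level of the 3 peptide genes. The bright cells of Vip, Prok2 and Grp stand in different rows, with Vip at 430.2 in the Ntng1 Penk Gal, Prok2 at 364 in the Adcyap1 Hpcal1 Fam19a2 and Grp at 152 CPM in the Nts Stxbp6 cluster in SD+RS, and the receptors are dark in most rows.

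The 3 peptides were carried by separate cells with few exceptions. None of the 91 Vip-rich neurons in SD+RS and 1 of 54 in SD were also Prok2-rich. None in SD+RS and 1 in SD were also Grp-rich, and no neuron was rich in both Prok2 and Grp. For 0 of 91 cells the share allowed is up to 3.30%, which does not lie below the 1.83% of all SD+RS neurons that were Prok2-rich, so avoidance was not detectable at this depth.

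Vip-rich neurons were nearly all GABAergic by their markers, with Slc32a1 in 95.6% of them in SD+RS and 92.6% in SD, and Slc17a6 in 6.59% and 7.41%. Prok2-rich neurons were mixed, with Slc32a1 in 46.2% of them in SD+RS and in 26 of 52 in SD, and Slc17a6 in 56.4% and 51.9%. Grp-rich neurons had Slc32a1 in 85.1% in SD+RS and 71.3% in SD. Of the markers of suprachiasmatic neurons, the transcription factor genes Six6 and Lhx1 and the peptide gene Nms were at or near 0 among Vip-rich cells: Six6 was in 1 SD+RS and 0 SD cells, Lhx1 in 0 and 1, and Nms in none of either library. Rgs16, Rorb and Syt10, which other neurons of the dissection also carry, were in 45.1%, 59.3% and 33.0% of Vip-rich cells in SD+RS, against 26.0%, 30.3% and 23.9% of the other neurons, and in 48.1%, 46.3% and 20.4% in SD, against 28.5%, 31.3% and 21.2%. Rgs16 and Rorb were thus in a higher share of Vip-rich cells than of other neurons in both libraries. Vip-rich cells were also read deeper, with median totals of 27307 UMIs in SD+RS and 29230 in SD. All neurons had 21277 and 22146, and these shares were not thinned to an equal depth. Lhx1 was in 8.51% of Grp-rich cells in SD+RS and 13.0% in SD, against 3.46% and 4.17% of the neurons that were not Grp-rich, while Six6 and Nms were in none. Six6 and Nms were thus at or near 0 in Vip-rich and Grp-rich cells, but both were rare in all neurons. Nms was in 16 SD+RS and 16 SD neurons, and Six6 had 188 and 208 neuronal UMIs. A share below that of other neurons was therefore not detectable for these 2 markers. Lhx1 was near 0 in Vip-rich but not in Grp-rich cells, and Rgs16 and Rorb were more frequent in Vip-rich cells. Avp, the vasopressin gene, was in 8.79% of Vip-rich cells in SD+RS and 20.4% in SD, against 12.6% and 15.6% of the other neurons.

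Fos, an early gene induced by neuronal activity, was read in more of the Prok2-rich neurons than of the others. It was found in 55.1% of Prok2-rich neurons in SD+RS (43 of 78) and 73.1% in SD (38 of 52), against 33.3% and 28.0% of the other neurons. Prok2-rich neurons were also read deeper than all neurons, with median totals of 27114.5 UMIs in SD+RS and 28666 in SD. The shares were not thinned. Vip-rich neurons had Fos in 28.6% in SD+RS and 25.9% in SD, and Grp-rich neurons in 36.2% and 22.2%, against 33.8% and 28.6% of the neurons that were not Vip-rich and 33.7% and 28.8% of those that were not Grp-rich. The Fos level in Prok2-rich neurons was 121 CPM in SD+RS and 230 in SD, a log2 ratio of -0.93 (-1.16 to -0.69). It was -0.91 (-1.30 to -0.52) in Xist-only and -0.18 (-0.55 to 0.19) in Y-only cells, so the lower level in SD+RS stood beyond counting error in Xist-only cells alone; the difference between the sex calls was not tested. In the other neurons the log2 ratio was 0.14 (0.07 to 0.20). In the cells of the Adcyap1 Hpcal1 Fam19a2 cluster that were not Prok2-rich, Fos stood at 72.5 CPM in SD+RS (57 cells) and 38.8 in SD (24 cells, 18 UMIs), a log2 ratio of 0.90 (0.15 to 1.73), the opposite order.

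**Figure D5:**
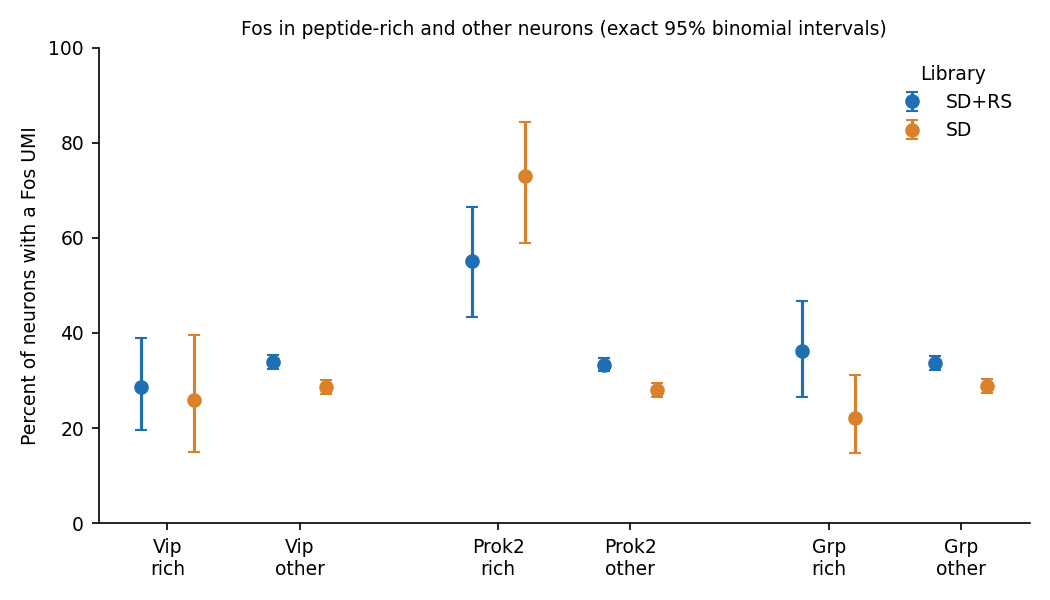
Percent of neurons with at least 1 Fos UMI among neurons rich in each peptide and among all other neurons, with exact 95% binomial intervals, SD+RS left of SD. Prok2-rich neurons stand above all others, at 55.1% in SD+RS and 73.1% in SD.

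The summed level of 14 activity-induced genes was also lower in SD+RS in Prok2-rich neurons, 444 CPM in SD+RS and 719.8 in SD (log2 -0.70, -0.82 to -0.57). The log2 ratio of the sum was -0.82 (-1.02 to -0.61) in Xist-only and -0.05 (-0.24 to 0.14) in Y-only Prok2-rich cells. The sum was 180.02 in SD+RS and 183 in SD in Vip-rich neurons (log2 -0.02, -0.23 to 0.19). That value combines opposite ones: Xist-only Vip-rich cells had 153 in SD+RS (82 cells) and 225 in SD (30 cells), a log2 ratio of -0.55 (-0.80 to -0.30), and Y-only ones had 612 in SD+RS (7 cells) and 81.8 in SD (18 cells), a log2 ratio of 2.90 (2.38 to 3.44). Without the Tac2 Amigo2 Cbln2 cluster, which held 4 SD+RS and 3 SD Vip-rich cells, it was 133 in SD+RS and 197 in SD (log2 -0.57, -0.80 to -0.34), so the value differs with those few cells left out. In the Nts Stxbp6 cluster, where Grp was lower in SD+RS, the sum was 124 in SD+RS and 61.2 in SD (log2 1.02, 0.80 to 1.25), and Fos stood at 20.3 and 5.44. The activity genes and Grp thus went opposite ways in that cluster. Its Xist-only share was 89.6% in SD+RS and 30.1% in SD, and the sum was not divided by sex call there. In Grp-rich neurons of all clusters the sum had a log2 ratio of 0.23 (0.05 to 0.42). It was -0.34 (-0.56 to -0.11) in Xist-only and 0.42 (-0.26 to 1.03) in Y-only Grp-rich cells.

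No receptor was highest in the cluster where its peptide was highest. Vipr2, whose product is the receptor through which VIP acts in the suprachiasmatic nucleus, was highest in the Tcf7l2 Meis2 Nrn1 cluster, with Slc17a6 in 97.0% of its cells, at 10.9 CPM in SD+RS (13 UMIs) and 16.8 in SD (32 UMIs). Tcf7l2 is a transcription factor gene of Wnt signalling. The Lhx8 Spon1 Cartpt cluster followed with 5.59 in SD+RS and 4.26 in SD, and the Penk Serpinb1b Nmu cluster with 2.67 and 3.45. Vipr2 was at 0 in 20 of 32 clusters in SD+RS and 18 in SD. The Tcf7l2 Meis2 Nrn1 cluster made up 1.27% of SD+RS and 2.12% of SD neurons, a log2 ratio of -0.74 (-1.27 to -0.22). Of the Vipr2 difference of -0.30 CPM, -0.21 was by number and -0.09 by level.

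Prokr2 was highest in the glutamatergic Gng8 C1ql1 Hopx cluster at 20.9 CPM in SD+RS and 27.9 in SD, followed by the Tcf7l2 Meis2 Nrn1 cluster at 14.2 and 16.3 and the Otp Gpr50 Unc13c cluster at 7.59 and 12.4. All 3 log2 ratios had intervals that included 0. It was read in 29.0% of the cells of the first cluster in SD+RS and 35.3% in SD. Of the Prokr2 difference of -0.47 CPM, -0.11 was by number and -0.36 by level. With this division of the neurons its lower value in SD+RS lay mostly within clusters, and that of Vipr2 mostly in the number part. The parts carry no interval. They rest on 140 SD+RS and 169 SD UMIs for Prokr2 and 59 and 80 for Vipr2, so no contrast between the receptors is read from them.

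Grpr was highest in the GABAergic Tac2 Crh Lamp5 cluster at 12.3 CPM in SD+RS (46 UMIs) and 8.03 in SD (22 UMIs), a log2 ratio of 0.61 (-0.15 to 1.42). Neurons with at least 1 Grpr UMI were 18.1% of that cluster in SD+RS and 11.2% in SD. The Crhbp Fam122b Id2 cluster had 6.85 in SD+RS and 5.71 in SD. The Tac2 Crh Lamp5 cluster was also among the 3 highest of Vip and of Grp. Grp-rich neurons of all clusters held 0 Grpr UMIs in SD+RS and 1 in SD, with intervals up to 1.56 and 1.85 CPM. These overlap the intervals of Grpr in all neurons, 1.43 to 1.96 in SD+RS and 1.41 to 1.96 in SD. Vipr1 did not pass 2.05 CPM in any of the 32 clusters.

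Peptide-rich neurons, like neurons at large, held few UMIs of the receptor of their own peptide. Vip-rich neurons had no UMI of Vipr1 or Vipr2 in either library, from 2683097 UMIs in SD+RS and 1658031 in SD, so that up to 1.12 and 1.81 CPM are allowed. That limit lies above the level of Vipr2 in all neurons, so a difference was not detectable at this depth. Prok2-rich neurons had 0 Prokr2 UMIs in SD+RS and 2 in SD, with intervals up to 1.65 and 4.97 CPM. Those intervals include the Prokr2 levels in all neurons, 1.44 and 1.91 CPM, so a difference was not detectable here either.

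Genes of the receptors' pathways past 1.5-fold in neurons were counted by list. The lists were chosen with earlier results known, and a member counted as tested had at least 100 neuronal UMIs. Of 22 genes of cyclic AMP signalling, 22 were tested and none passed 1.5-fold, with a median log2 ratio of -0.09 and the lowest value at Creb1, the transcription factor gene of the cyclic AMP response element, with 26.5 CPM in SD+RS and 35.0 in SD (log2 -0.40), named after its value was seen. Of 16 genes of Gq signalling 13 were tested, none passed, and the median was -0.09. Of 12 genes of peptide processing and secretion 12 were tested, none passed, and the median was 0.05. Of 7 related ligands and receptors 4 were tested, none passed, and the median was 0.09. Of 11 suprachiasmatic genes 11 were tested and 1 passed: Nms, with 116 UMIs in SD+RS and 28 in SD (log2 1.91), of which 1 SD+RS neuron held 80. The median over all 13982 genes was -0.01, and 2.76% of them were past 1.5-fold, 1.04% higher and 1.72% lower. At that share few or no genes would pass in lists of this size, so nothing is read from the counts.

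Across the 32 clusters, the gene whose level was most like that of Vip was Brinp2, which encodes a neural protein of the BRINP family (Spearman's rho 0.73), followed by Tac2 (0.65), Lama2 (0.65), Cyp2j6 (0.63) and Ltbp2 (0.62). For Prok2 they were Dmkn (0.81), Sh3rf1 (0.73), Hpcal4 (0.73), Lsm10 (0.72) and Actn1 (0.72), and for Grp Wdfy2 (0.65), Aco1 (0.62), Arl5b (0.61), Nrg1 (0.61) and Cltb (0.59). The first genes for the sparse receptors were Fam19a1 for Vipr2 (0.73), Zfp773 for Prokr2 (0.84), Rita1 for Grpr (0.67) and Ppp1ca for Vipr1 (0.62). Brinp2 was itself highest in the cluster highest in Vip, and Aco1 in that highest in Grp. No other gene named here was highest in the cluster where its member was. Vipr1 was at 0 in 25 of the 32 clusters in SD+RS and 22 in SD. These values describe 32 clusters that share both libraries, out of 12942 genes ranked, and carry no p-value.

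The authors' deposited table of markers of both libraries together lists Vip in cluster i11, in 20.5% of the cluster's cells, and in i6 and i21. The authors' deposited table lists Prok2 in e13, in 67.3% of the cells, and in i6, in 42.4%. In the same authors' deposited table Grp is listed in i12, in 46.2% of the cells, and in i8 and i20. The authors' deposited table gives Adcyap1 as a leading gene of e13, Nts of i12 and Gal of i6, which are also leading genes of the rebuilt clusters with most Prok2, with most Grp and of the second cluster of Vip and Prok2. None of the 4 receptor genes is listed in the authors' deposited tables of cluster markers.

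The other members lie on chromosome 9 (Vipr1, 121642716 to 121672954, plus strand), 12 (Vipr2, 116077726 to 116146261, plus strand), 2 (Prokr2, 132337733 to 132385447, minus strand), X (Grpr, 163513904 to 163549677, minus strand) and 18 (Grp), all in mm10 and all protein-coding. Grpr, the X-linked member, stood at 1.68 CPM in Xist-only SD+RS and 1.47 in Xist-only SD neurons, and at 1.80 and 1.75 in Y-only neurons.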

How the data were processed

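The members and the gene lists were chosen with earlier results of these data known. The authors deposited raw UMI counts made with Cell Ranger 3.0.2, per the file headers. Seurat 4.0.4 and the build mm10 are named in the submitters' processing notes. The deposited tables of cluster markers give, per the file headers, shares of cells as a fraction, a p-value computed over cells, and an average difference taken here as natural log (ln), whose base the headers do not give and which is not printed. A second marker table, which holds none of the 7 genes, was not used here.

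Kept barcodes had 500 genes or more and less than 20% of UMIs from mitochondrial genes, and Scrublet (2 simulated doublets per cell, expected rate 6%) removed 294 SD+RS cells (3.81%) and 578 SD cells (5.85%). Clustering used scanpy 1.11.5 with 2000 variable genes, 40 components, 20 neighbours and Leiden resolution 1.0 for all cells and 1.5 for neurons, without batch correction and with 125 genes left out, the 7 members included. A class needed 3 of its markers, each in 20% of a cluster's cells. Cells of clusters that were shallow or carried markers of another class stayed unnamed (110 SD+RS and 710 SD cells). The largest such cluster was shallow but scored best for neurons (73 SD+RS and 602 SD cells). GABAergic and glutamatergic are names from Slc32a1, Gad1 and Gad2 and from Slc17a6. A cluster is called by its 3 leading genes, less any that is not reported here. Cluster names were rebuilt, so a difference from the study may come from them.

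Levels (CPM) are summed UMIs per 1000000 UMIs of the same cells, with exact Poisson intervals, shares have exact binomial (Clopper-Pearson) intervals, and ratios have exact conditional intervals, all for counting error only, since PCR duplicates are collapsed by UMI but cells of 1 library are not replicates. A count of 0 is given with a limit of 3 counts. Ratios, their intervals and the 1.5-fold calls were tested on simulated Poisson counts, the model that the intervals assume. The split into parts was tested on set values. Doublet calls, clustering, cell classes, thinning and sex calls were not tested in this way. Clusters with at least 50 neurons in each library were described. The named genes were the members, their 3 highest clusters (2 for Grpr), up to 5 genes most like each by Spearman's rho with at least 200 UMIs, and list genes past 1.5-fold. Other filters, doublets kept, other resolutions, members kept in the clustering, sex calls, other scaling and, added after seeing the data, removal of the top cell, removal of neurons with a YFP UMI and clusters of at least 20 neurons were tried.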

Additional observations from a re-analysis of the deposited data

Results flagged for a closer look

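Of the values compared within Xist-only and Y-only neurons, 8 went opposite ways between SD+RS and SD with counting intervals that left out 0 in both. The number of pairs compared is not given here, so nothing is read from this count. The intervals do not cover the gathering of many UMIs in single cells. The log2 ratio of Vip in neurons was 0.65 in Xist-only and -1.43 in Y-only neurons, 2.07 apart. Behind the second were 161 SD+RS and 997 SD UMIs, 377 of the latter from 1 neuron. The log2 ratio of Vip within the Ntng1 Penk Gal cluster was 0.25 in Xist-only and -2.43 in Y-only cells, 2.68 apart, with 15 SD+RS and 107 SD UMIs behind the second. The log2 ratio of the share of neurons in the Nts Stxbp6 cluster, where Grp was highest, was 0.85 in Xist-only and -1.06 in Y-only neurons, 1.90 apart. Prok2 in the Calcr Brs3 Gal cluster had log2 ratios of 3.16 in Xist-only and -0.78 in Y-only cells, 3.93 apart. Vip in that cluster had 0.54 in Xist-only and -5.37 (-10.7 to -2.84) in Y-only cells, 5.90 apart, with 1 SD+RS and 76 SD UMIs behind the second. Vip in the Th Cck Slc18a2 cluster had 0.42 in Xist-only and -8.45 (-13.8 to -5.97) in Y-only cells, 8.87 apart, with 1 SD+RS and 413 SD UMIs behind the second. Of those 413 UMIs, 377 came from 1 cell. In the Tac2 Crh Lamp5 cluster Vip went the other way, with -4.11 in Xist-only and 3.28 in Y-only cells, a difference of -7.39, where the Y-only cells numbered 10 in SD+RS and 51 in SD. The sum of 14 activity-induced genes in Vip-rich neurons had -0.55 in Xist-only and 2.90 in Y-only cells, a difference of -3.46, with 7 SD+RS and 18 SD cells behind the second. These differences were not tested, as each sex call has 1 pool of mice per library, and the sources used here do not give the number of mice behind each.

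YFP, used here only to leave out the neurons that held it, was read at 2.34 CPM in SD+RS neurons and 48.5 CPM in SD neurons. The series' design text calls the mice wild type. Among Vip-rich neurons YFP was found in 2.20% in SD+RS (2 of 91) and 14.8% in SD (8 of 54).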

How the results depend on the processing

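No paired analysis was possible because each group has 1 library. Among alternative values of the levels and shares of Vip, Prok2 and Grp, 70 lay within the counting interval of the reported value, 25 lay outside it with the same sign or beside a reported interval that held 0, and 4 had the opposite sign to a reported value whose interval left out 0. Of those 4, the interval of the alternative value itself held 0 in 2, Vip with clusters of at least 20 neurons and Prok2 within its cluster in Y-only cells. The cell share of the Grp cluster, whose interval held 0, also took both signs. All are log2 ratios of SD+RS over SD. Vip in neurons was 0.65 in Xist-only and -1.43 in Y-only neurons, 0.69 as a mean over cells, 0.50 without its highest cluster, 1.02 without the top cell of each library and 1.12 without neurons that held a YFP UMI. The cell share of its cluster was 0.86 in Y-only neurons, and 0.84 where clusters of at least 20 neurons were allowed, which makes the Th Cck Slc18a2 cluster the highest. The Vip level within its cluster was 0.25 in Xist-only and -2.43 in Y-only cells, 0.42 at resolution 1.0, 0.19 at resolution 2.0, -0.020 with clusters of at least 20 neurons and 1.62 without the top cell. Prok2 in neurons was 0.82 in Xist-only and 0.67 in Y-only neurons, and within its cluster -0.12 in Xist-only cells, 0.0014 in Y-only cells and -0.025 at resolution 1.0. Grp in neurons was -0.24 in Xist-only and -1.99 in Y-only neurons and -0.11 without its highest cluster. Its cluster's cell share was 0.85 in Xist-only and -1.06 in Y-only neurons and -0.55 at resolution 2.0, and its level there -1.50 in Xist-only and -2.45 in Y-only cells, -0.94 at resolution 2.0 and -1.49 with the members kept in the clustering. Of the other values, the share of Vip-rich cells was -0.20 in Y-only neurons, the level part of Prok2 was 2.28 CPM at resolution 1.0 and the number part of Grp was -3.15 at resolution 2.0. The cause was not tested. Thinned to 2000 UMIs, Vipr1 gave no ratio, with 0 SD+RS neurons and 1 SD neuron. With 1 library per group, differences between pools of mice and between conditions cannot be told apart, and receptors with under 200 neuronal UMIs are limited by depth.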
